A study of Mus musculus with 6 samples.

Results

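The 10 genes described here encode RNA-binding proteins with known roles in neurons, and they were followed in dopaminergic neurons of the mouse SNc (substantia nigra pars compacta), whose axons supply the dorsal striatum with dopamine. They are the Musashi genes Msi1 and Msi2, the Rbms genes Rbms1, Rbms2 and Rbms3, the neuronal Elavl genes Elavl2, Elavl3 and Elavl4, and Celf4 and Nova1. They were taken by symbol from 23337 genes in the deposited table. The set was chosen by symbol with measured differences between these same libraries in view, that of Msi2 first of all, so the differences of the 10 genes between the groups are given as a description, with no p-value. All 10 were in the table, and 9 passed a filter on low values, a mean normalized count of 10 or more. Msi1 did not.

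Sorted neurons were compared by poly(A) RNA sequencing in 2 groups of 3 libraries each, Sox6+ and Sox6-, both from adult C57BL/6 mice whose genotype was Sox6-FSF-Cre, Th-2A-Flpo and RC-Frepe. In this intersectional design the Flpo recombinase comes from the Th locus, Cre from the Sox6 locus once Flpo has acted, and RC-Frepe reports the outcome as a colour. Sox6+ neurons were sorted by GFP and Sox6- neurons by mCherry. Recombination is permanent, so the colour records whether a cell has used both loci at some time. Libraries carry the numbers 103, 825 and 1211 in both groups, and no label says whether each came from its own animals, so the p-values given for other genes measure the spread between these samples, which may be technical. The question was how the 2 dopaminergic populations of the SNc differ.

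The libraries held from 10397924 to 12952768 reads in genes. Sox6, whose locus defines the sort, had 840.5, 461.2 and 389.0 normalized reads in Sox6+ libraries 103, 825 and 1211, against 103.6, 18.1 and 36.2 in Sox6- libraries 103, 825 and 1211. The summed level of 6 dopaminergic markers ran from 100434.9 to 196305.7 in Sox6+ libraries and from 36771.0 to 125855.7 in Sox6- libraries, and all 6 were detected in every library. That of 3 GABAergic markers ran from 5.7 to 6667.9 against 1181.3 to 11532.3, and that of 2 glutamatergic markers from 162.8 to 999.3 against 2236.7 to 4815.2. Sox6+ library 825 stood apart through 27589.5 normalized reads of 6 macrophage and microglia markers, nearly all from Lyz2, where the other Sox6+ libraries had at most 31.6 and the Sox6- libraries at most 20.1. Tyrobp had 1035.1 and Csf1r 58.1 in library 825 of Sox6+, while Cx3cr1 had 2.28 there and Aif1 and C1qa were at 0. In the same library 4 oligodendrocyte markers summed to 1972.2, against 247.6 at most in any other library. The sum of 4 pan-neuronal markers ran from 99855.5 to 103786.1 in Sox6+ against 67026.8 to 98395.6 in Sox6- libraries. Snap25 carried most of it, and its own groups overlapped, at 74854.6 to 87156.3 against 54230.3 to 85309.2. Syt1 was higher in every Sox6+ library, and Tubb3 overlapped. Rbfox3 ran the other way with overlap, at 323.6 to 467.6 against 450.2 to 1031.3. The sum of 6 astrocyte markers ran from 2727.2 to 3077.3 in Sox6+ against 3934.3 to 7095.8 in Sox6- libraries, with no overlap. Aldoc carried almost the whole astrocyte sum, and the other 5 together reached at most 4.6 in Sox6+ and 75.8 in Sox6- libraries. The oligodendrocyte precursor markers Pdgfra and Cspg4 were at 0 in every library. In bulk RNA, fewer cells that make a transcript and less of it per cell cannot be told apart.

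RNA-binding proteins decide what becomes of a transcript after it is made: which exons are joined, how long the mRNA lasts, where it goes in the cell and how often it is translated. Musashi proteins bind short UAG-containing elements and control translation, and they are known from neural stem cells, where Msi1 and Msi2 occur together. Neuronal Elavl (Hu) proteins bind U-rich and AU-rich stretches, stabilize mRNAs and regulate splicing in neurons. Nova1 is a KH-domain splicing regulator of synaptic transcripts, Celf4 binds mRNAs of excitable neurons in the mouse, and the Rbms proteins are RNA- and single-stranded DNA-binding proteins.

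Msi2 and Rbms3 were the members whose groups stood apart most clearly, and their promoter windows are shown because both genes had more transcript in the neurons sorted on Sox6. Each window runs from 250 bases before to 50 after the outermost RefSeq start on GRCm38.p6, written 5′ to 3′ on the minus strand, which both genes use. Capitals mark ACAAT or its reverse complement ATTGT, the core that Sox proteins recognise through their HMG box.

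Msi2, chr11:88718228-88718527: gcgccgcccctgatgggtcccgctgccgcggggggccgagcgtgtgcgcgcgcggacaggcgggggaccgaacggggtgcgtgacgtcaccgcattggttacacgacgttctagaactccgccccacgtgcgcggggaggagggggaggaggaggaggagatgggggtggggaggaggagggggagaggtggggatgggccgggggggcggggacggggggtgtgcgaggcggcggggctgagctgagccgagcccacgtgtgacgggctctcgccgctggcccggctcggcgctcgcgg

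Rbms3, chr9:117629864-117630163: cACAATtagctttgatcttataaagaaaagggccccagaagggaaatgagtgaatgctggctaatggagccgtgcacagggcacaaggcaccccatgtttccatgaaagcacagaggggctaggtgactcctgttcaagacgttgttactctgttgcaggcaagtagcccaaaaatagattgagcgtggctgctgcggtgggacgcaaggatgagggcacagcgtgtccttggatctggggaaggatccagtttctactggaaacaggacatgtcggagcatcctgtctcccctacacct

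The Msi2 window held neither form of the motif, and the Rbms3 window held ACAAT once, close to its upstream end. Of 20150 windows of the same length from protein-coding genes, 26.9% held the motif in either orientation. Among the 10 genes, 8 were found in the RefSeq table with 21 windows, of which 4 held the motif, in Elavl2, Elavl4 and Rbms3. Msi1 and Celf4 were not matched. The 2 printed windows differ in base composition: the Msi2 window was 76.3% G or C with 39 CpG dinucleotides and an observed-to-expected CpG ratio of 1.0, and the Rbms3 window was 52.0% G or C with 7 CpG dinucleotides and a ratio of 0.35. The medians over all windows were 57% and 14 CpG dinucleotides. A match to these letters is a description and not a site of binding.

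Msi2 RNA was more than 4 times as abundant in Sox6+ as in Sox6- neurons, while Msi1 was almost absent from both. Msi2, at chromosome 11, 88339382 to 88718513, minus strand (GRCm38), had 865.2, 1137.6 and 1206.9 normalized reads in Sox6+ libraries 103, 825 and 1211, against 335.8, 213.5 and 196.6 in the Sox6- libraries of those numbers. All 3 Sox6+ libraries lay far above the highest Sox6- library, which was number 103. The values rest on 877, 999 and 1306 recovered reads in the Sox6+ and on 350, 212 and 212 in the Sox6- libraries. The means were 1069.9 ± 180.6 in Sox6+ and 248.6 ± 75.9 in Sox6- neurons (SD, n = 3 each), with a log2 difference of 2.13 and a standard error of 0.256, or 4.37-fold, on the log2(value + 1) scale. A positive difference means higher in Sox6+ neurons throughout.

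Msi2 was read beside the markers that set single libraries apart. In Sox6+ library 825, which held the high Lyz2 reads, Msi2 lay between the other 2 Sox6+ libraries, and without that library the log2 difference was 2.08. Sox6- library 825 had a dopaminergic marker sum of 125855.7, inside the range of the Sox6+ libraries, and held 213.5 normalized reads of Msi2, inside the range of the other 2 Sox6- libraries. Sox6+ library 103 had the lowest Msi2 of its group, 865.2, with the lowest dopaminergic sum, 100434.9, and the highest GABAergic sum, 6667.9. Sox6- library 103 had the highest Msi2 of its group, 335.8, with the highest Sox6, 103.6, and the highest GABAergic sum, 11532.3. The part of cell content in the Msi2 difference was not tested. Over the 14 alternatives the log2 difference ran from 1.98 to 2.36.

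Msi1, at chromosome 5, 115429599 to 115455698, plus strand, had 0, 0 and 3 reads in Sox6+ libraries 103, 825 and 1211 and 3 in each of the 3 Sox6- libraries. No library lay above 3 reads, so no fold is given. Per kb of annotated exon, Msi2 made up from 99.6% to 100% of the Musashi transcripts in Sox6+ and from 97.5% to 98.5% in Sox6- libraries.

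**Figure D1:**
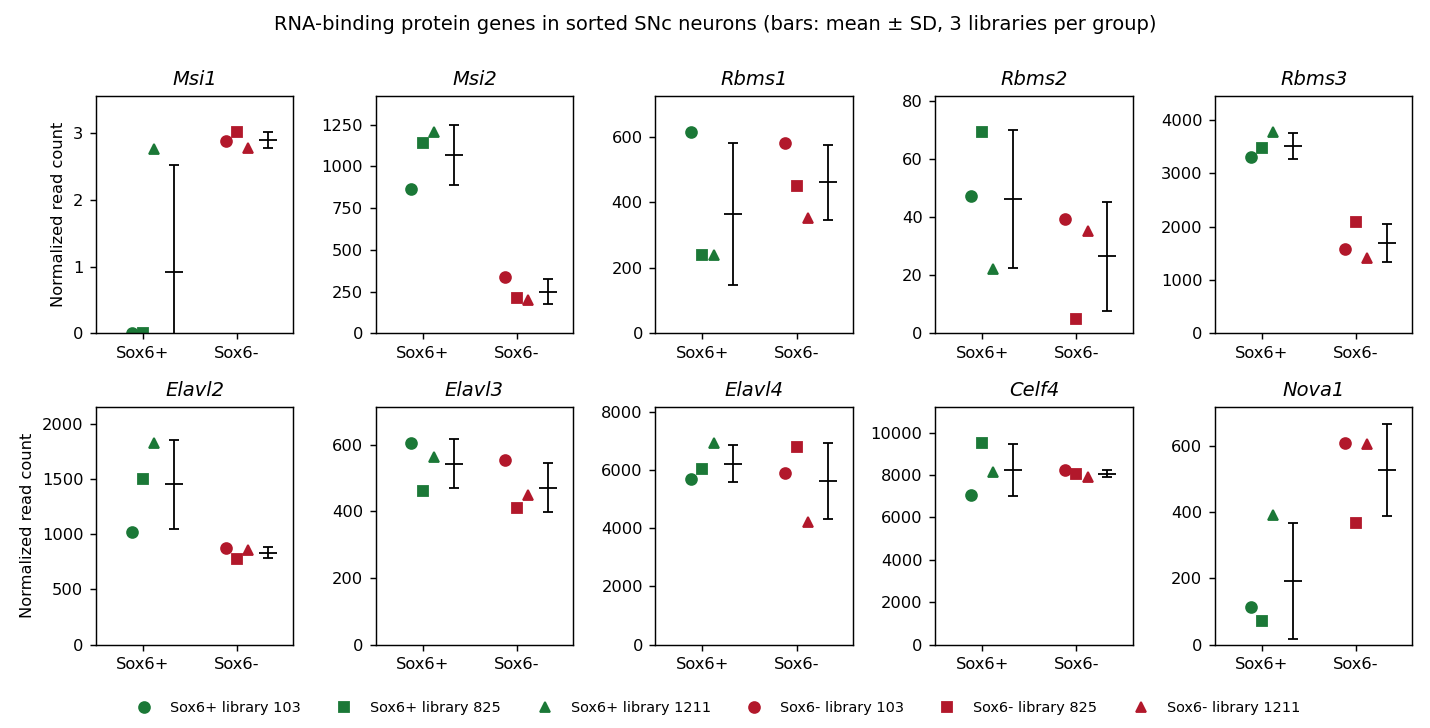
Normalized read count of each of the 10 genes (vertical axes, each starting at 0) in 3 Sox6+ and 3 Sox6- libraries, with the symbol giving the library number and the black bar the mean ± SD of each group. The groups stand apart for Msi2, Rbms3 and Elavl2, Nova1 overlaps by 1 Sox6+ library at 392.7, and Msi1 never exceeds 3 reads.

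Among the Rbms genes, Rbms3 was about 2-fold higher in Sox6+ neurons, and the 2 others had overlapping groups. Rbms3, at chromosome 9, 116572746 to 117629913, minus strand, encodes a mainly cytoplasmic RNA-binding protein. It had 3306.8, 3469.6 and 3778.7 normalized reads in Sox6+ libraries 103, 825 and 1211, against 1580.0, 2085.6 and 1409.7 in the Sox6- libraries. The lowest Sox6+ library was well above the highest Sox6- library, number 825. The log2 difference was 1.07 ± 0.17 (standard error), or 2.1-fold, with means of 3518.4 ± 239.7 in Sox6+ and 1691.8 ± 351.5 in Sox6- neurons (SD, n = 3 each). It was 1.08 without Sox6+ library 825, and ran from 0.95 to 1.23 over the alternatives.

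Rbms1, at chromosome 2, 60750193 to 60963192, minus strand, encodes a protein first described as a binder of DNA near the Myc gene. It had 615.6, 240.3 and 240.3 normalized reads in Sox6+ libraries 103, 825 and 1211, against 581.4, 449.2 and 352.4 in Sox6- libraries. Sox6+ library 103 was the highest of all 6 and the other Sox6+ libraries were the lowest, so the groups overlapped. The log2 difference was -0.46 ± 0.381. (standard error) It was -0.91 without Sox6+ library 103, -0.23 without Sox6+ library 825 or 1211, and -0.27 without Sox6- library 103.

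Rbms2, at chromosome 10, 128131558 to 128180297, minus strand, was the least abundant of the 9 genes that passed the filter. It had 47.4, 69.5 and 22.2 normalized reads in Sox6+ libraries 103, 825 and 1211, against 39.3, 5.04 and 35.2 in Sox6- libraries. The low value of Sox6- library 825 rests on 5 reads, and without that library the log2 difference of 1.05, with its standard error of 0.887, was 0.17.

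Within the family the balance between Rbms3 and Rbms1 differed between the groups. Per kb of annotated exon, Rbms3 made up 72.1%, 84.9% and 88.1% of the 3 Rbms transcripts in Sox6+ libraries 103, 825 and 1211, against 56.9%, 70.7% and 65.2% in Sox6- libraries. Rbms1 made up 25.5%, 11.2% and 10.7% in Sox6+ libraries, against 39.8%, 28.9% and 31.0% in Sox6- libraries. Every Sox6+ library lay on one side of every Sox6- library for both shares, by a narrow margin between Sox6+ library 103 and Sox6- library 825. Rbms2 made up at most 3.95% in any library, so the 2 shares nearly mirror each other and give 1 observation. The genes were chosen with this comparison in view, so the separation is a description. How often such shares separate in other families was not tested. A share within a library does not depend on how libraries were scaled to each other.

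The 3 neuronal Elavl genes were abundant in both groups, and Elavl2 had non-overlapping groups. Elavl2 (HuB), at chromosome 4, 91250763 to 91400785, minus strand, had 1021.1, 1501.9 and 1823.3 normalized reads in Sox6+ libraries 103, 825 and 1211, against 871.1, 775.4 and 851.4 in Sox6- libraries. Sox6+ library 103 was close to the Sox6- libraries, which lay within a narrow range. The log2 difference was 0.76 ± 0.218 (standard error) and did not pass the threshold described below. Over the alternatives it ran from 0.57, without Sox6+ library 1211, to 0.99, without Sox6+ library 103.

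Elavl3 (HuC), at chromosome 9, 22015005 to 22052023, minus strand, is often used as a pan-neuronal marker. It had 604.7, 462.3 and 561.9 normalized reads in Sox6+ libraries 103, 825 and 1211, against 552.6, 410.9 and 448.9 in Sox6- libraries, with a log2 difference of 0.21 and a standard error of 0.211. Number 825 was the lowest library of each group, and the groups overlapped.

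Elavl4 (HuD), at chromosome 4, 110203722 to 110351909, minus strand, stabilizes mRNAs of growing axons. It had 5690.3, 6041.9 and 6929.0 normalized reads in Sox6+ libraries 103, 825 and 1211, against 5910.5, 6778.5 and 4210.6 in Sox6- libraries. The lowest value was that of Sox6- library 1211, and without it the log2 difference of 0.17 was -0.03. Per kb, Elavl4 made up from 81.0% to 83.4% of the 3 neuronal Elavl transcripts in Sox6+ libraries and from 82.4% to 89.2% in Sox6- libraries. Elavl2 made up from 9.7% to 13.8% in Sox6+ and from 6.61% to 10.8% in Sox6- libraries, so these shares overlapped although the Elavl2 levels did not.

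Celf4 and Nova1, which act on splicing, translation and stability of neuronal mRNAs, differed in how stable they were. Celf4, at chromosome 18, 25477632 to 25754157, minus strand, had 7082.2, 9510.4 and 8140.5 normalized reads in Sox6+ libraries 103, 825 and 1211, against 8250.4, 8036.4 and 7930.5 in Sox6- libraries. The Sox6- values lay inside the range of the Sox6+ values. The log2 difference of 0.02 had a standard error of 0.137, and 3.76% of tested genes had a smaller difference in size.

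Nova1, at chromosome 12, 46694517 to 46818929, minus strand, was the member with the largest difference in the other direction. It had 113.5, 71.7 and 392.7 normalized reads in Sox6+ libraries 103, 825 and 1211, against 609.2, 367.6 and 606.5 in Sox6- libraries. Sox6+ library 1211 lay above Sox6- library 825, so the groups overlapped, and the Sox6+ libraries spread 5.47-fold between lowest and highest. The log2 difference was -1.79 ± 0.577 (standard error), and it was -1.28 without Sox6+ library 825 and -2.50 without Sox6+ library 1211. GABAergic markers summed to 6667.9, 5.7 and 1472.1 in Sox6+ libraries 103, 825 and 1211, against 11532.3, 1181.3 and 6300.1 in Sox6- libraries, so number 825 was lowest in each group for these markers and for Nova1. Glutamatergic markers summed to 999.3, 162.8 and 764.2 in Sox6+ libraries, against 2599.8, 2236.7 and 4815.2 in Sox6- libraries. Slc17a6 carried most of each of these sums. Slc17a7 had 126.3 in Sox6+ library 103 and 103.6 in Sox6- library 103, and was at 0 elsewhere. Slc17a6 was also listed as a marker of dorsal-tier dopaminergic neurons, so these sums do not stand for other neurons alone. The part of other neurons in the Nova1 difference was not tested.

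Levels of different genes were compared per kb of exon, from the union of all exons in the annotation, which can be longer than the transcripts these neurons make. In Sox6+ neurons Elavl4 and Celf4 came first, at 1155 ± 118 and 961 ± 142 normalized reads per kb (SD, n = 3 each), followed by Rbms3 at 338 ± 23.0, Elavl2 at 174 ± 48.6 and Msi2 at 103 ± 17.4. Elavl3, Rbms1, Nova1 and Rbms2 followed at 78.8 ± 10.6, 66.8 ± 39.6, 22.0 ± 20.0 and 10.3 ± 5.28. The ranges of neighbours in this order overlapped except between Celf4 and Rbms3, between Rbms3 and Elavl2, between Elavl2 and Msi2, and between Rbms2 and Msi1.

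In Sox6- neurons the first 4 genes stood in the same order, with Elavl4 at 1046 ± 242, Celf4 at 941 ± 19.0, Rbms3 at 162 ± 33.8 and Elavl2 at 100.2 ± 6.08 normalized reads per kb (SD, n = 3 each). Rbms1, Elavl3 and Nova1 came next, at 84.2 ± 21.0, 68.3 ± 10.6 and 60.3 ± 15.9, and Msi2 stood below them at 23.9 ± 7.3, above Rbms2 at 5.92 ± 4.18. Here neighbours overlapped except between Celf4 and Rbms3, Rbms3 and Elavl2, Nova1 and Msi2, Msi2 and Rbms2, and Rbms2 and Msi1. Msi2 was thus above the range of Nova1 in Sox6+ libraries and below it in Sox6- libraries.

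**Figure D2:**
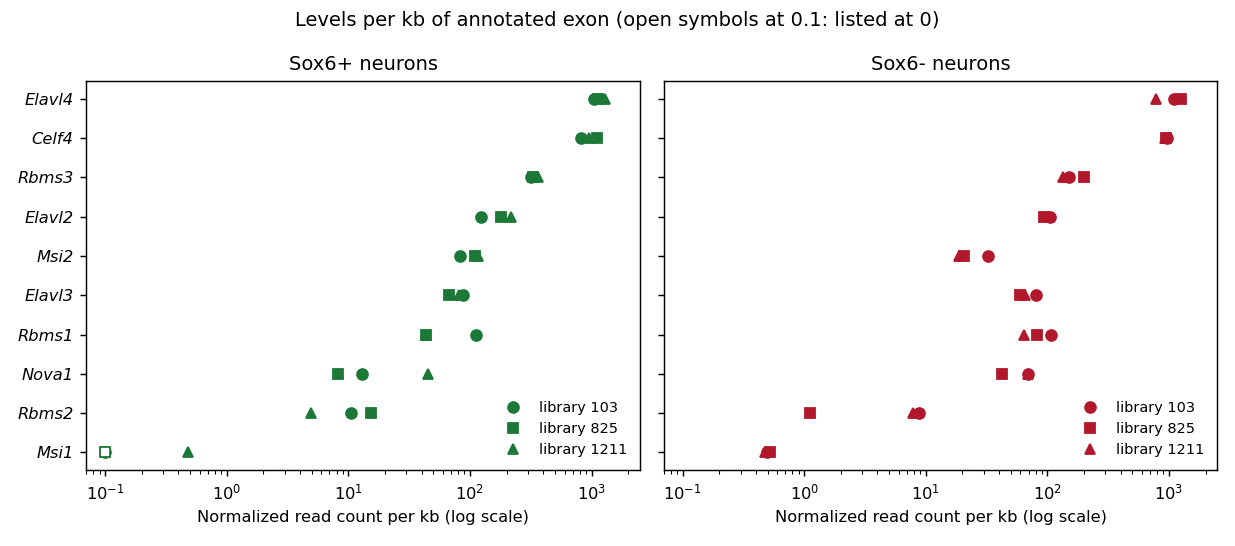
Normalized read count per kb of annotated exon (horizontal log axes) of the 10 genes in the Sox6+ libraries on the left and the Sox6- libraries on the right, 1 symbol per library, ordered by the Sox6+ mean. Elavl4 and Celf4 lead in both groups, and Msi2 lies at 103 ± 17.4 in Sox6+ against 23.9 ± 7.3 in Sox6- neurons.

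Set against all genes, 2 of the 9 tested members, Msi2 and Rbms3, passed an adjusted p of 0.05 in the fit across 13175 genes (limma with Benjamini-Hochberg adjustment), where 0.304% of tested genes passed. The count is given without a reading, because the members were chosen on this comparison. The groups did not overlap for Msi2, Rbms3 and Elavl2, as for 17.0% of tested genes. In the authors' deposited table, made with DESeq2, the same 3 genes passed an adjusted p of 0.05, where 2.83% of the genes with an adjusted p did. That table gives log2 fold changes as Sox6- over Sox6+, at -2.11 for Msi2, -1.06 for Rbms3 and -0.8 for Elavl2, with standard errors of 0.285, 0.19 and 0.245, and at 1.45 for Nova1 with 0.56.

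The median log2 difference was 0.21 over the 9 members and -0.02 over all tested genes, and 7 members were positive and 2 negative. The difference of Msi2 lay above that of 98.1% of tested genes, and Rbms3 above 94.5%. Nova1 lay above 6.08%. The 2 calls depended on single libraries and on the test: the quasi-likelihood test of edgeR, run on recovered reads, called neither gene without a block and both with the replicate block, and neither passed without Sox6+ library 825, Sox6+ library 1211 or Sox6- library 1211. Msi2 was not called without Sox6- library 825, and Rbms3 was not called without Sox6- library 103 or with no filter. Both differences were positive in each of the 14 alternatives, which non-overlapping groups fix in advance for every fit that leaves a library out. Elavl2 passed with DESeq2 on recovered reads and without Sox6+ library 103, and Nova1 passed with the replicate block in limma.

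**Figure D3:**
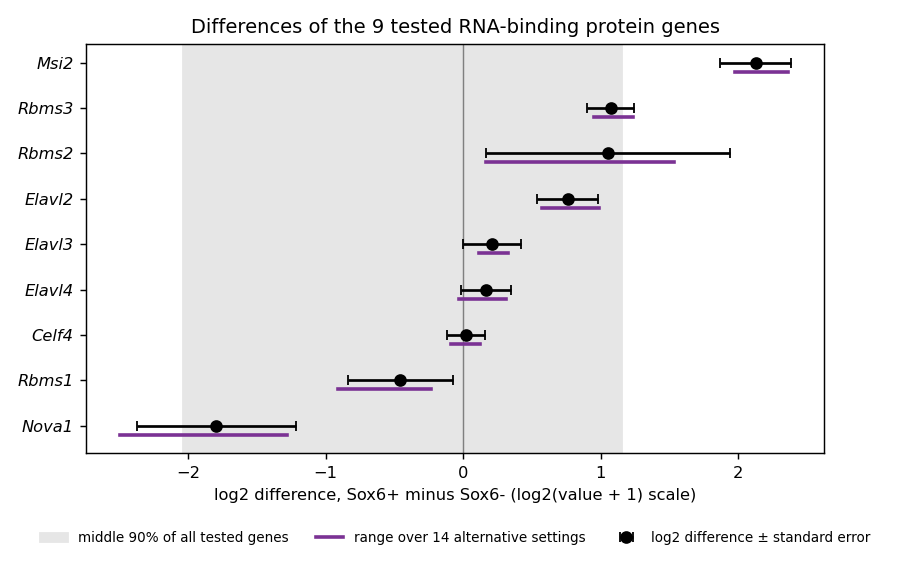
Log2 difference of the 9 tested genes, Sox6+ minus Sox6- on the log2(value + 1) scale (black points with standard errors), with its range over 14 alternative settings as a purple line and the middle 90% of all tested genes in grey. Msi2 at 2.13 lies outside the grey band, and the purple lines of Celf4 and Elavl4 cross 0.

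The other RNA-binding protein genes gave no call in limma without a block. A list of 50 relatives held 24 splicing regulators and 26 regulators of mRNA decay, transport and translation, of which 23 and 22 were tested. None of the 45 passed with limma without a block, with 3 at an unadjusted p under 0.05, 1 passed with the replicate block in limma, none passed with edgeR with or without the block, and 2 passed with DESeq2 on the recovered reads. Their log2 differences ran from -1.58 to 1.49, with a median size of 0.33, where that of all tested genes was 0.32. The upper end was Zfp36l2, a low gene with a standard error of 1.58. It had 2.96, 50.1 and 6.47 normalized reads in Sox6+ libraries 103, 825 and 1211, against 5.76, 9.06 and 0 in Sox6- libraries. The groups did not overlap for 9 of the 45 tested relatives, or 20%, near the 17.0% of all tested genes.

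The relatives of smallest p were Qk, Rbfox1, Mbnl1 and Khdrbs2. Qk, the quaking gene, which is best known from myelinating glia, had 333.4, 291.5 and 396.4 normalized reads in Sox6+ libraries 103, 825 and 1211, against 134.3, 131.9 and 192.0 in Sox6- libraries. The groups did not overlap, and the log2 difference of 1.16, with a standard error of 0.277, had an adjusted p of 0.144 (limma). The 4 oligodendrocyte markers summed to 123.3, 1972.2 and 140.5 in Sox6+ libraries 103, 825 and 1211, against 130.5, 136.0 and 247.6 in Sox6- libraries, and their part in the Qk values was not tested.

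Rbfox1, a neuronal splicing regulator, had 215.1, 310.9 and 362.3 normalized reads in Sox6+ libraries 103, 825 and 1211, against 619.7, 573.0 and 1829.8 in Sox6- libraries. All Sox6- libraries were higher than all Sox6+ libraries, number 1211 most of all, with a log2 difference of -1.58, a standard error of 0.437 and an adjusted p of 0.228 (limma). Rbfox1 passed with DESeq2 and in limma with the library number as a replicate block, and Qk passed with DESeq2. Mbnl1, a muscleblind splicing factor, had a log2 difference of 0.46 with an adjusted p of 0.415, and Khdrbs2, a STAR-family splicing regulator, one of -0.47 with an adjusted p of 0.456 (limma).

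**Figure D4:**
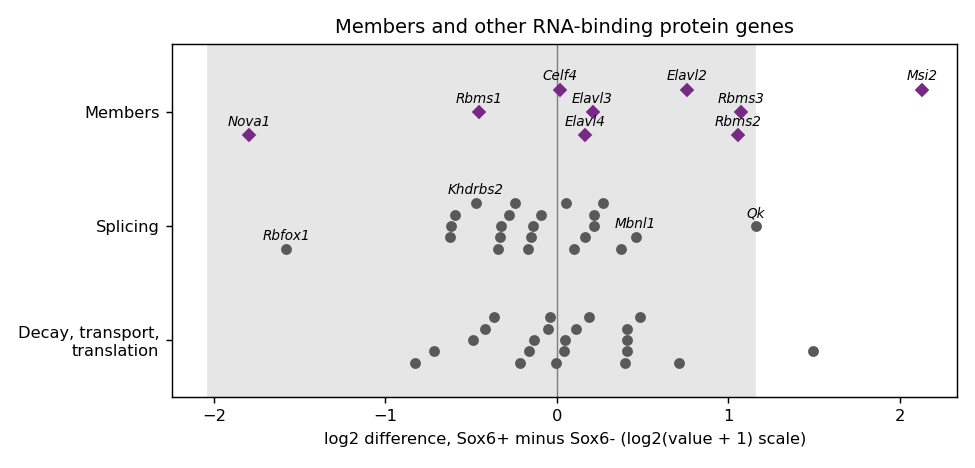
Log2 difference, Sox6+ minus Sox6- on the log2(value + 1) scale, of the 9 tested members (purple diamonds, named) and of 23 splicing regulators and 22 regulators of decay, transport and translation (grey points, spread vertically for legibility), with the middle 90% of all tested genes in grey. Among the splicing regulators Qk at 1.16 and Rbfox1 at -1.58 lie farthest out.

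Genes described as targets of these proteins in mouse, rat or human cells were read next, as gene totals, which carry no information on splicing or translation. None of 5 passed in the reported limma fit or with edgeR without a block. In that limma fit 2 had an unadjusted p under 0.05, and the same 2, Cdkn1a and Glra2, passed with DESeq2. Cdkn1a, a cell cycle inhibitor gene repressed by Musashi1 in human cells, had 227.9, 485.1 and 448.2 normalized reads in Sox6+ libraries 103, 825 and 1211, against 87.3, 91.6 and 79.8 in Sox6- libraries. Every Sox6+ library was well above every Sox6- library, with a log2 difference of 2.08, a standard error of 0.347 and an adjusted p of 0.0514 (limma), just outside the threshold. It passed with the replicate block in limma and in edgeR, and in limma with a pseudocount of 8 or without Sox6+ library 103. Numb, a Notch inhibitor gene and the classical Musashi1 target in the mouse, had 88.8, 145.8 and 83.2 in Sox6+ libraries, against 158.3, 88.6 and 54.7 in Sox6- libraries, and the groups overlapped.

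Glra2, a glycine receptor subunit gene and a Nova1 target in the mouse, had 143.1, 195.9 and 64.7 normalized reads in Sox6+ libraries 103, 825 and 1211, against 442.3, 408.9 and 692.8 in Sox6- libraries, with a log2 difference of -2.03, a standard error of 0.413 and an adjusted p of 0.092 (limma). Every Sox6- library lay above every Sox6+ library. The glutamatergic marker sums given beside Nova1, mostly from Slc17a6, stood apart in the same direction, and the GABAergic ones overlapped between the groups. As said there, Slc17a6 does not mark other neurons alone. The part of other neurons in the Glra2 difference was not tested.

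An Elavl4 and a Celf4 target had overlapping groups. Gap43, a growth-cone protein gene whose mRNA Elavl4 stabilizes in the rat, had a log2 difference of 0.001 with a standard error of 0.226. Scn8a, the sodium channel gene whose mRNA Celf4 binds in the mouse, had a log2 difference of -0.24 with a standard error of 0.251.

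The genes most like Msi2 over the 6 libraries, by Pearson correlation of log2(value + 1), were Prkaa2, Rpl3l and Slc35a1, at 0.996, 0.99 and 0.989. Those most like Rbms3 were Ddb1, Derl3 and Ldoc1, at 0.997, 0.994 and 0.991. The 6 libraries come from 2 groups, and genes picked for likeness to Msi2 or Rbms3 share their separation of the groups by choice, so nothing is read from it. Prkaa2, the gene of an AMP-activated kinase subunit, had 556.4, 700.3 and 692.2 normalized reads in Sox6+ libraries 103, 825 and 1211, against 359.8, 307.2 and 288.4 in Sox6- libraries. As for Msi2, library 103 was the lowest in Sox6+ and the highest in Sox6- neurons. Ddb1, the gene of a damaged-DNA-binding protein, had 1761, 1804 and 1854 in Sox6+ libraries, against 942.1, 1144 and 895 in Sox6- libraries, and shared with Rbms3 a highest Sox6- value in library 825.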

How the data were processed

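Poly(A) RNA of sorted neurons was isolated after papain dissociation and made into libraries with a stranded kit, as the labels' protocols say. Per the submitters' notes on processing, the tools were DESeq2, HTSeq, STAR, cutadapt and FastQC, with mm10 and GRCm38 as builds. Versions, the strand setting and the order of steps are not stated there. The authors' single table holds a normalized signal for each library, a read count over that library's size factor. Per the file headers the authors also deposited a log2 fold change, a p-value and a test score per gene. Of the values above 0, 100% were whole multiples of the value of 1 read (0.924 to 1.139), within 0.01, so reads were recovered.

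The signal is not a raw count, so limma with trend and robust moderation was fitted on log2(value + 1) to the 13175 genes with a mean of at least 10, 2-sided, with Benjamini-Hochberg adjustment at 0.05. A difference on that scale understates the change of low genes. edgeR and DESeq2 on the recovered reads, a replicate block, other pseudocounts, no filter, TMM factors and leaving out each library were alternatives. The fit was tested on simulated data. The members and lists were chosen with earlier results of these data known. Named were all 10 members, of the relatives those past the threshold and the 4 of smallest p, 5 targets (other targets are not reported here), and the 3 genes most like Msi2 and Rbms3. Libraries were not copies of each other, with a chi-square per gene of at least 34.4 for all pairs and correlations of log2 values from 0.796 to 0.92 within groups and 0.754 to 0.92 between them. Positions and exon lengths are from GENCODE M21 (GRCm38), promoters from RefSeq (GRCm38.p6). In that annotation the exons of Elavl3 share 256 bases, and those of Nova1 310 bases, with another gene on the same strand. Fits used limma 3.58.1, DESeq2 1.42.0 and edgeR 4.0.16 in R 4.3.3, with Python 3.11.15 for the rest.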

Additional observations from a re-analysis of the deposited data

How the results depend on the processing

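Each of the 9 tested members moved by less than the spread between its replicates under all 14 alternatives, and Celf4 and Elavl4 changed sign once each. Most of these settings could not have shown a larger move. With 3 libraries a group, leaving 1 out always shifts the difference by less than that spread. The replicate block in limma and the filter leave the difference unchanged. The number of members past the threshold, 2 in the reported fit, was 1 with no filter, 0 with edgeR and 2 with edgeR and the replicate block, and ran from 0 to 3 when 1 library was left out. Of the relatives, 0 passed, against 1 with the replicate block in limma and 2 with DESeq2. Over all genes the reported fit called 17 higher and 23 lower. These counts became 134 and 133 with the replicate block in limma, 34 and 35 with a pseudocount of 8, 7 and 14 with no filter, 1 and 5 with edgeR, 63 and 57 with edgeR and the replicate block, and 171 and 216 with DESeq2. Leaving out 1 library gave from 0 to 59 higher and from 1 to 102 lower. The cause of these shifts was not tested.

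The library numbers were not taken as pairs: the deviations of same-numbered libraries from their group means correlated at 0.268, 0.172 and 0.079 for 103, 825 and 1211. Every library correlated best with its own number, which is a hint from the data and not the design. With 3 libraries a group and few reads, Msi1 and Rbms2 allow no firm statement.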
